A study of Canis lupus familiaris with 10 samples.

Results

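CPA3, MS4A2, IL33 and IL1RL1 are 4 genes of the mast cell and of the IL33-ST2 axis, followed here in visceral adipose tissue (VAT) of dogs with induced hypercortisolism. They are 4 of the 19856 genes in the count tables and were matched from symbol to Ensembl identifier through the study's list of differentially expressed genes. The genes were chosen by their measured difference between Post-ACTH and Pre-ACTH samples in these libraries, so that difference is given as a description, and no test of it is read as a result. All 4 were among the 13577 genes that were tested, each with 10 or more reads in some library. CPA3 and MS4A2 reached 10 reads only in Pre-ACTH libraries, so the read filter itself required them to be higher there.

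VAT was taken by laparotomy from 5 adult Beagle dogs of both sexes (2 females, 3 males). Each dog gave a Pre-ACTH sample, when it was still untreated, and a Post-ACTH sample, when tetracosactide had been given for 25 weeks. Tetracosactide is a synthetic analog of ACTH, the pituitary hormone that drives cortisol release from the adrenal gland. It was delivered by subcutaneous osmotic pumps changed at intervals of 4 weeks, at 1.3 to 1.95 μg/kg/day at the start and 6 to 10 μg/kg/day at the end. Each dog served as its own control and no untreated dogs were followed, so the treatment and the 25 weeks that passed cannot be told apart. The dogs are numbered 1 to 5.

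Mast cells are tissue-resident granulocytes that release histamine, proteases and lipid mediators when IgE bound to their surface meets its antigen. IL33 is an alarmin, a cytokine kept in the nucleus of stromal and barrier cells and set free when these are damaged. Its receptor ST2, encoded by IL1RL1, is carried by mast cells, type 2 innate lymphoid cells and a subset of regulatory T cells. In adipose tissue the axis is known for maintaining these innate lymphoid cells and regulatory T cells. IL1RL1 also gives a soluble decoy receptor that binds IL33.

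The 10 libraries held between 8728330 and 14867529 counted reads, the smallest being the Pre-ACTH library of dog 3, and the 10 most abundant genes took from 9.82% to 16.7% of the reads. LIPE, the hormone-sensitive lipase of adipocytes, stood at 1513 to 1935 CPM (reads per 1000000 library reads, after scaling with TMM factors) in Pre-ACTH and at 2138 to 2592 CPM in Post-ACTH. It was the only 1 of 10 adipocyte markers with a name in the sources used here. LIPE has a name because it is in the study's list, so its direction is no independent observation. In bulk tissue, fewer cells of a type and less RNA per cell cannot be told apart.

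CPA3, MS4A2 and IL33 were lower and IL1RL1 was higher in Post-ACTH, in all 5 dogs. All 5 dogs moved the same way in 26.9% of the tested genes. The fitted log2 fold changes were -5.0 for CPA3, -3.26 for MS4A2, -1.81 for IL33 and 3.28 for IL1RL1. For each of the 4 genes the Pre-ACTH and Post-ACTH values did not overlap, which held for 9.04% of all tested genes (4.74% lower and 4.3% higher in Post-ACTH). With the dog as a block, edgeR's quasi-likelihood test called 1.97% of all tested genes at FDR under 0.01, and 2 of the 4 genes (CPA3 and IL33). Since the same contrast chose the 4 genes, nothing is read from these counts.

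**Figure D1:**
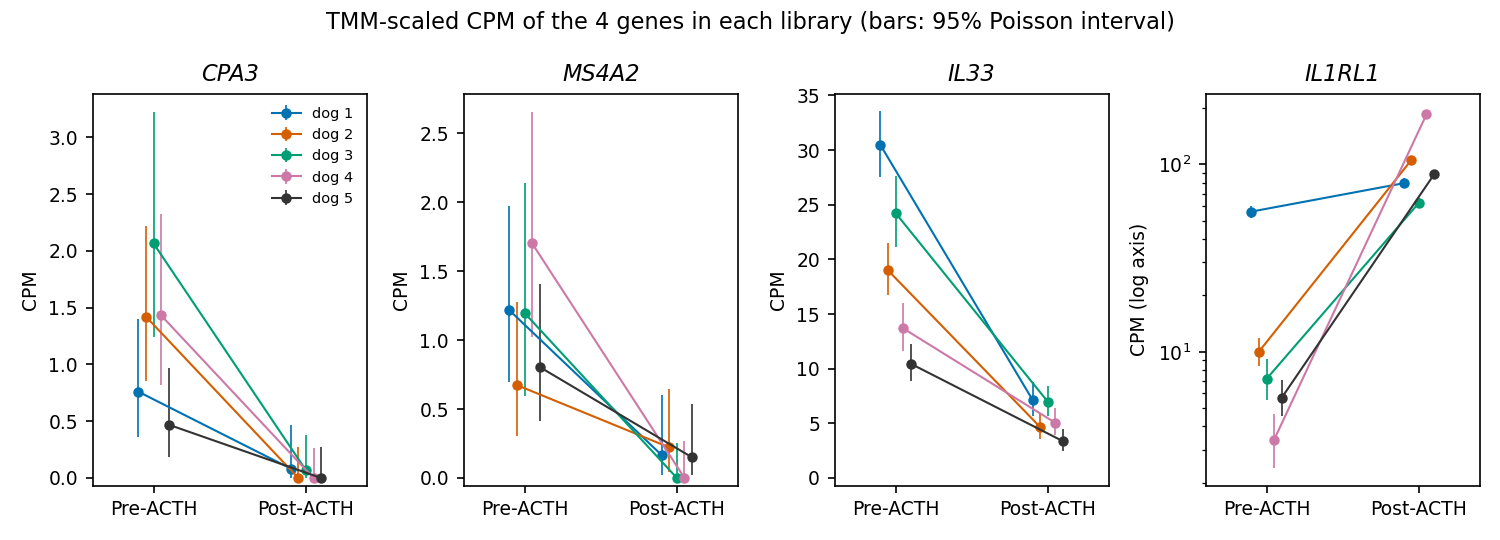
Level in CPM of CPA3, MS4A2, IL33 and IL1RL1 in the 10 libraries, with 1 line per dog from Pre-ACTH to Post-ACTH and bars for the 95% Poisson interval, and with a log axis for IL1RL1. CPA3, MS4A2 and IL33 are lower and IL1RL1 is higher after treatment in every dog, and IL1RL1 starts far higher in dog 1, at 56.0 CPM, than in the others.

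CPA3 (ENSCAFG00000008235) encodes carboxypeptidase A3, a zinc protease stored in mast cell granules. In Pre-ACTH it had 10, 19, 19, 16 and 7 reads in dogs 1 to 5, or 0.760, 1.42, 2.07, 1.43 and 0.469 CPM. In Post-ACTH 1 read was found in dog 1, 1 in dog 3 and none in dogs 2, 4 and 5. A count of 0, read as up to 3 reads, allows at most 0.222 CPM in dog 2, 0.216 CPM in dog 4 and 0.224 CPM in dog 5. The lowest Pre-ACTH library, that of dog 5, thus held more CPA3 reads than all 5 Post-ACTH libraries together.

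The mean CPA3 level was 1.23 ± 0.628 CPM in Pre-ACTH and 0.0303 ± 0.0418 CPM in Post-ACTH (SD, n = 5 dogs each). Summed over the dogs, the 71 reads before and 2 reads after treatment gave a scaled Pre-ACTH level 38.8 times that of Post-ACTH, with an exact 95% interval from 10.3 to 326 that covers counting error only. Against a floor of 3 reads per library, CPA3 was at least 6.41-fold lower in dog 2, at least 6.63-fold lower in dog 4 and at least 2.10-fold lower in dog 5. The 2 dogs with a single Post-ACTH read had ratios of 9.16 (dog 1) and 30.2 (dog 3), each resting on that 1 read.

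In the fit over all genes, the log2 fold change of CPA3 was -5.0 (SE 0.70), rank 8 from the lowest of 13577. Its size depended on how reads near 0 are treated. With a prior count of 2 in place of edgeR's default it was -2.85, and the log2 ratios of single dogs, which also use a prior count of 2, averaged -2.80 ± 0.75 (SD, n = 5). Without dog 1 the fitted value was -5.67, and with limma-voom it was -4.27.

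MS4A2 (ENSCAFG00000010352) encodes the beta chain of the high-affinity IgE receptor, which amplifies the receptor's signal in mast cells and basophils. Its Pre-ACTH libraries held 16, 9, 11, 19 and 12 reads in dogs 1 to 5, which corresponds to 1.22, 0.673, 1.20, 1.70 and 0.804 CPM. After treatment it had 2 reads in dog 1, 3 in dog 2, none in dogs 3 and 4, and 2 in dog 5. The highest Post-ACTH count, 3 reads in dog 2, was below the lowest Pre-ACTH count, 9 reads in the same dog.

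The mean MS4A2 level was 1.12 ± 0.403 CPM in Pre-ACTH and 0.107 ± 0.102 CPM in Post-ACTH (SD, n = 5). The sums of 67 and 7 reads gave a Pre-ACTH level 10.5 times that of Post-ACTH (exact 95% interval 4.80 to 27.0, counting error only). MS4A2 was at least 5.84-fold lower in dog 3 and at least 7.88-fold lower in dog 4, against 3 reads per library. In the remaining dogs the ratio of Pre-ACTH to Post-ACTH ranged from 3.04 (dog 2) to 7.33 (dog 1).

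The fitted log2 fold change of MS4A2 was -3.26 (SE 0.75), rank 46 from the lowest, and it was -2.25 with a prior count of 2 and -3.85 without dog 2. Single dogs had log2 ratios between -3.58 (dog 4) and -1.14 (dog 2). The 95% Poisson intervals of all 5 Pre-ACTH libraries overlapped. For CPA3, the Pre-ACTH intervals of dog 3 (1.24 to 3.23 CPM) and dog 5 (0.189 to 0.966 CPM) did not overlap.

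Reads of CPA3 and MS4A2 occurred in similar numbers before treatment. CPA3 made up 51.4% of their 138 reads over the Pre-ACTH libraries, with an exact 95% binomial interval of 42.8% to 60.0%. In single Pre-ACTH libraries its share ran from 36.8% in dog 5 to 67.9% in dog 2, and these intervals overlapped. Only 9 reads of the pair remained in all Post-ACTH libraries, of which 2 were CPA3, and the interval of that share (2.81% to 60.0%) overlapped that of Pre-ACTH.

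**Figure D2:**
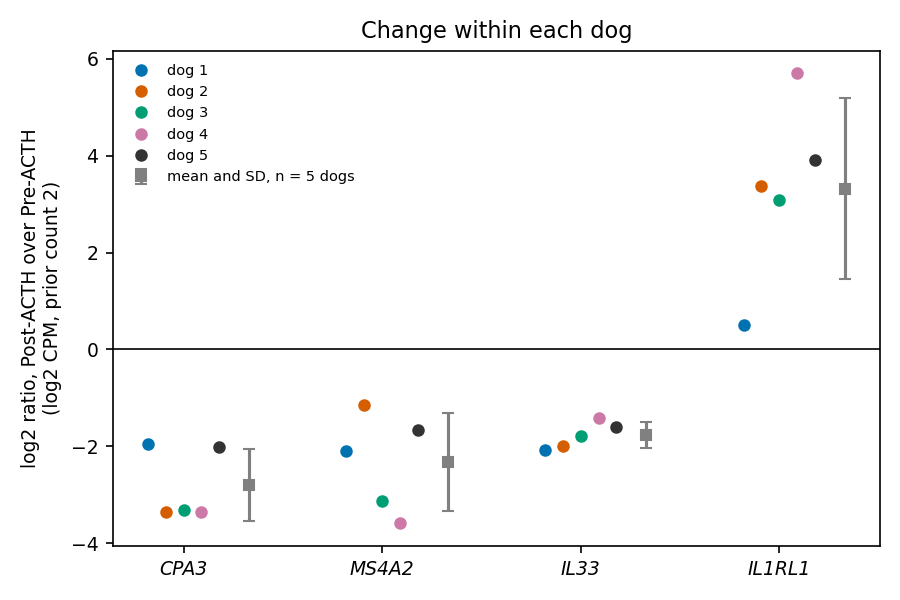
Log2 ratio of Post-ACTH over Pre-ACTH in each dog for the 4 genes (log2 CPM with a prior count of 2), with the mean and SD over 5 dogs as grey squares and bars. IL33 shows the narrowest spread, from -2.07 to -1.42, and IL1RL1 the widest, from 0.50 in dog 1 to 5.70 in dog 4.

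IL33 (ENSCAFG00000030105), the ligand of ST2, had far more reads than the mast cell genes, so its values carry less counting error. In Pre-ACTH it stood at 30.5, 19.0, 24.2, 13.7 and 10.5 CPM in dogs 1 to 5. In Post-ACTH the values were 7.14, 4.65, 6.97, 5.04 and 3.36 CPM. The highest Post-ACTH value, that of dog 1, was below the lowest Pre-ACTH value, that of dog 5.

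The mean level of IL33 was 19.6 ± 8.05 CPM before and 5.43 ± 1.61 CPM after treatment (SD, n = 5). Post-ACTH samples kept between 23.4% (dog 1) and 36.8% (dog 4) of the dog's own Pre-ACTH level. The log2 ratios averaged -1.77 ± 0.27 (SD, n = 5), against a median SD of 0.31 over all tested genes. The fitted log2 fold change was -1.81 (SE 0.13), rank 251 from the lowest, and stayed between -1.90 and -1.73 under all 13 alternatives run for it.

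Dog 1 had the highest and dog 5 the lowest IL33 level at both times. Before treatment the order was dog 1, 3, 2, 4 and 5. The Poisson intervals of neighbours in this order overlapped, except between dog 2 (16.7 to 21.5 CPM) and dog 4 (11.6 to 16.0 CPM). After treatment the order was dog 1, 3, 4, 2 and 5, and the intervals of all neighbours overlapped.

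Fibroblasts and adipose progenitors are among the known sources of IL33. Of 12 marker genes listed for these cells, 9 had a name and all 9 were lower in Post-ACTH. In edgeR 5 of the 9 passed FDR under 0.01, where 22.9% of the 1079 named genes passed. The median log2 fold change of these 9 was -1.55, against -0.56 over the named genes and -0.00 over all tested genes. Their summed level ranged from 1626 to 3546 CPM in Pre-ACTH and from 586 to 954 CPM in Post-ACTH. The median log2 ratio of these 9 genes was -2.0, -1.63, -1.51, -1.51 and -1.02 in dogs 1 to 5, beside -2.07, -1.99, -1.78, -1.42 and -1.60 for IL33. The part of these cells in the lower IL33 level was not tested. The 9 genes have names here because they are in the study's list, so their direction and calls are no independent observation.

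IL1RL1 (ENSCAFG00000002142) encodes ST2, and gene counts do not separate the membrane receptor from the soluble form. It stood at 56.0, 10.0, 7.18, 3.40 and 5.70 CPM in the Pre-ACTH samples of dogs 1 to 5. After treatment it reached 79.4, 105, 62.4, 185 and 88.5 CPM. Dog 1 was apart from the other dogs before treatment, at 5.59 times the next highest value, and among them afterwards.

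The mean of IL1RL1 was 16.5 ± 22.2 CPM in Pre-ACTH and 104 ± 47.7 CPM in Post-ACTH (SD, n = 5), and without dog 1 the Pre-ACTH mean was 6.57 ± 2.78 CPM (SD, n = 4). The Post-ACTH level was 1.42 times the Pre-ACTH level in dog 1, 10.5 times in dog 2, 8.69 times in dog 3, 54.4 times in dog 4 and 15.5 times in dog 5. The lowest Post-ACTH value was 1.11 times the highest Pre-ACTH value and 6.22 times the next highest. The narrow gap between the groups thus lay between the Pre-ACTH sample of dog 1 and the Post-ACTH sample of dog 3.

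The fitted log2 fold change of IL1RL1 was 3.28 (SE 0.67), rank 20 from the highest of 13577. It was 3.99 when dog 1 was left out. Without the dog as a block it was 2.65. Between dogs, the SD of log2 CPM was 1.52 in Pre-ACTH and 0.59 in Post-ACTH, against medians of 0.25 and 0.24 over all tested genes. Without dog 1 the Pre-ACTH SD was 0.64.

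**Figure D3:**
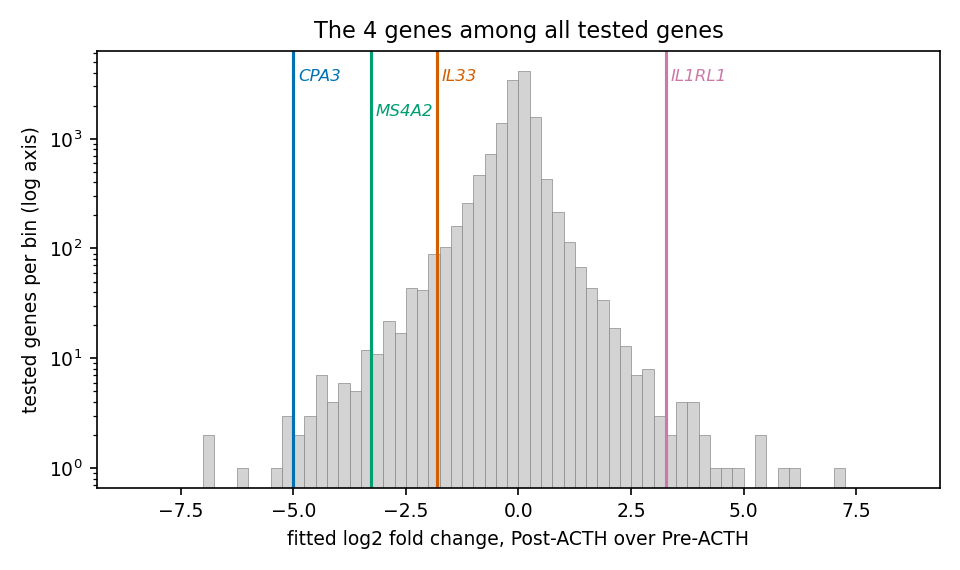
Histogram of the fitted log2 fold change (Post-ACTH over Pre-ACTH) of all 13577 tested genes in bins of 0.25, with the number of genes on a log axis and vertical lines at the 4 genes. CPA3 (-5.0), MS4A2 (-3.26) and IL1RL1 (3.28) lie far out in the tails. IL33 (-1.81) lies nearer to the bulk, yet below the 5th percentile of all tested genes (-1.10).

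The order of the dogs differed between ligand and receptor. Dog 4 had the lowest IL1RL1 level before treatment and the highest after it, where its Poisson interval (178 to 192 CPM) did not overlap that of the next dog (100 to 111 CPM, dog 2). After treatment the intervals of dogs 5 and 1 overlapped, and dog 3 was below both. Before treatment, the intervals of dogs 2, 3, 5 and 4 overlapped from neighbour to neighbour in this order.

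The ratio of IL1RL1 to IL33 reads within a library does not depend on depth or scaling. In Pre-ACTH, 1.84 reads of IL1RL1 were counted per IL33 read in dog 1, 0.528 in dog 2, 0.296 in dog 3, 0.248 in dog 4 and 0.545 in dog 5. The same ratio was 11.1, 22.7, 8.95, 36.7 and 26.4 in Post-ACTH. Receptor reads were thus fewer than ligand reads in 4 of 5 dogs before treatment and more numerous in all 5 after it.

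Within dogs the Post-ACTH ratio was 6.05 times the Pre-ACTH ratio in dog 1, 42.9 times in dog 2, 30.2 times in dog 3, 148 times in dog 4 and 48.4 times in dog 5. The log2 change averaged 5.15 ± 1.66 (SD, n = 5). The ratio compares reads and not molecules, since the lengths of the transcripts are not in the files, and only its change between samples is read.

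**Figure D4:**
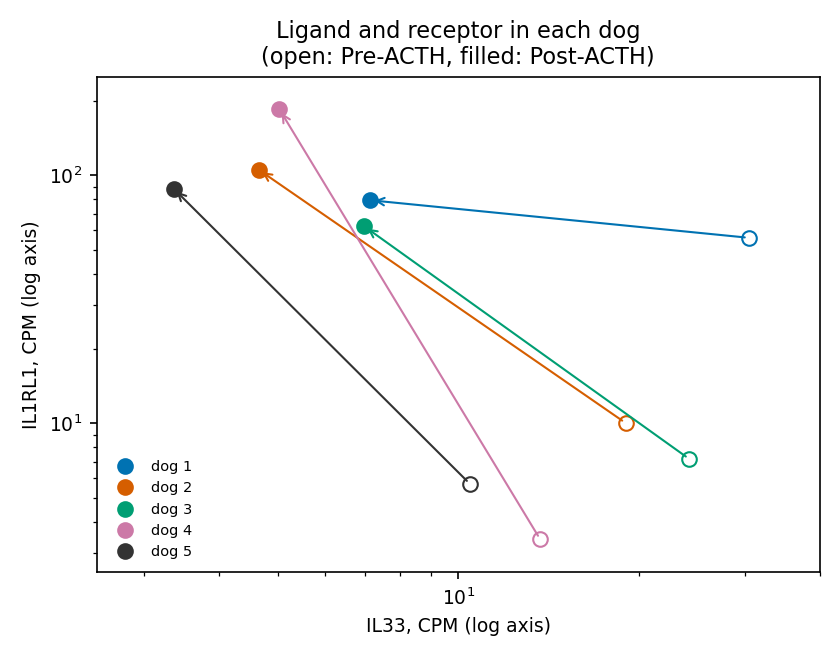
IL33 level against IL1RL1 level, both in CPM on log axes, with 1 arrow per dog from the Pre-ACTH sample (open circle) to the Post-ACTH sample (filled circle). All 5 arrows run to lower IL33 and higher IL1RL1, and that of dog 1, which starts at 56.0 CPM of IL1RL1, is the flattest.

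The response by sex was not used in choosing the genes and could be tested. It is given for IL33 and IL1RL1 only, since CPA3 and MS4A2 had 0 to 3 reads in each Post-ACTH library and their ratios mostly follow the Pre-ACTH level. The mean log2 ratio in females and males was -1.89 and -1.69 for IL33, and 3.23 and 3.37 for IL1RL1. With 2 females and 3 males, an exact permutation test over dogs (two-sided) cannot go below p = 0.1. Its p was 0.5 for IL33 and 1 for IL1RL1, before any adjustment.

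A fit over all genes with a sex-by-treatment term (edgeR quasi-likelihood test) called 0 of 13577 genes at FDR under 0.01. In that fit 435 genes (3.20%) had an unadjusted p under 0.05, below the share of 0.05 that no sex difference would give on average. DESeq2 called 5 genes, none of them among the 4. For IL33 the female response minus the male response was -0.18 on the log2 scale (SE 0.28, adjusted p = 1). The same difference was -0.04 for IL1RL1 (SE 1.39, adjusted p = 1), and this SE leaves room for a large sex difference.

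Around the 4 members, lists of 107 genes were drawn up for mast cells, IgE receptor signalling, IL33 signalling, the IL-1 family, the KIT axis and type 2 lymphocytes. Of the 103 genes that are no members, 6 had a name in the sources used here. The study's list holds the genes it called at FDR under 0.01. Genes outside the study's list carry only an identifier and were not analysed under a name. That includes the other 19 genes of the mast cell list, such as KIT, FCER1A, HDC and the tryptases. A gene without a name here was thus not called by the study or stands unnamed in its list. The IL33 signalling and IL-1 family lists held no named gene beyond IL33 and IL1RL1. Of the 6 genes, 5 were lower and 1 higher in Post-ACTH in all 5 dogs, and PLCG2 alone passed FDR under 0.01, where 22.9% of the 1079 named genes passed. As genes of the study's list, all 6 were selected for change in these samples. Their adjusted p-values and calls below therefore describe them and are no independent test of the change.

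PLCG2 and VAV1 act below the IgE receptor. PLCG2, a phospholipase that starts the calcium signal in mast cells and B cells, fell from 16.7 ± 1.62 to 9.05 ± 1.95 CPM (SD, n = 5). On the log2 scale the difference was -0.90 ± 0.12 (SE), with an adjusted p of 0.00683 in edgeR. Its Post-ACTH values ran from 6.76 to 11.7 CPM and did not overlap those of Pre-ACTH (14.1 to 18.5 CPM). The call was lost when any 1 of the dogs was left out (adjusted p from 0.0116 without dog 1 to 0.0363 without dog 2, edgeR). VAV1, a guanine nucleotide exchange factor of blood cells, had a log2 fold change of -1.02 (SE 0.19) that missed the threshold (adjusted p = 0.0160, edgeR). It stood at 4.96 to 8.81 CPM before and 2.52 to 3.99 CPM after treatment.

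KITLG encodes stem cell factor, the growth factor on which mast cells depend through the receptor KIT. In Pre-ACTH it had 67.5, 63.2, 102.8, 101.3 and 60.5 CPM in dogs 1 to 5. In Post-ACTH it had 39.0, 27.8, 29.6, 17.9 and 37.1 CPM, with no overlap between the groups. Its log2 fold change was -1.38 (SE 0.26), and it missed FDR under 0.01 with the dog as a block (adjusted p = 0.0173, edgeR) and passed without the block (adjusted p = 0.00580, edgeR). Over all its alternatives the adjusted p ran from 2.37e-07 with DESeq2 to 0.0645 without dog 3 in edgeR. The widest difference was in dog 4, with a log2 ratio of -2.49. STAT5B, a transcription factor that acts below KIT and many cytokine receptors, was higher by 0.45 ± 0.08 (SE) on the log2 scale and missed the threshold (adjusted p = 0.0128, edgeR), with values from 223 to 268 CPM before and from 311 to 386 CPM after treatment.

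ICOS and TNFRSF18 are receptors of activated and regulatory T cells. ICOS stood at 27.7, 24.8, 23.3, 4.83 and 10.6 CPM in Pre-ACTH and at 16.0, 6.13, 3.01, 0.216 and 5.45 CPM in Post-ACTH. The groups overlapped, with a low Pre-ACTH level in dog 4, although each dog was lower after treatment than before. TNFRSF18 had a log2 fold change of -0.85 (SE 0.18) and ICOS one of -1.87 (SE 0.41), and neither passed the threshold (adjusted p = 0.0271 and 0.0288, edgeR).

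**Figure D5:**
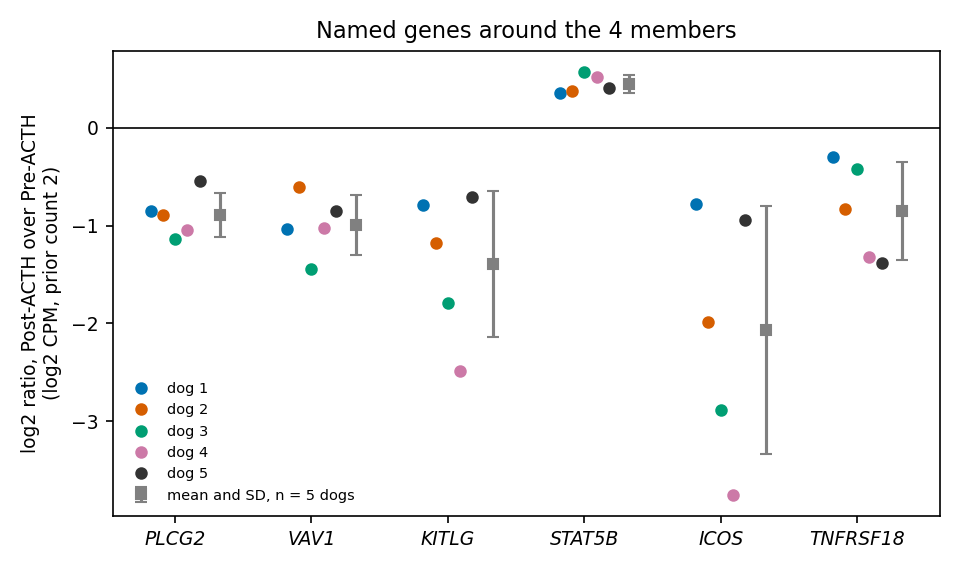
Log2 ratio of Post-ACTH over Pre-ACTH in each dog (log2 CPM, prior count 2) for the 6 named genes of the surrounding lists, with the mean and SD over 5 dogs as grey squares and bars. STAT5B lies above 0 in all dogs and the other 5 genes lie below 0, with ICOS spread from -3.75 to -0.78.

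Markers of other cells moved in both directions. Of 11 macrophage markers 3 had a name, and none passed FDR under 0.01, with log2 fold changes of -0.75 for CSF1R, -0.88 for ITGAM and 1.00 for C1QB. Their summed level ranged from 78.3 to 170 CPM before and from 46.3 to 112 CPM after treatment. CKM, the muscle creatine kinase and the only 1 of 7 skeletal muscle markers with a name, rose from 2.77 to 16.4 CPM in Pre-ACTH to 43.3 to 142 CPM in Post-ACTH. The log2 fold change of CKM was 3.58, and it passed FDR under 0.01 in edgeR, where 22.9% of the named genes passed. These macrophage and muscle markers too have names because they are in the study's list. Their direction and calls are therefore no independent observation. The part of macrophages and muscle in the changes of the 4 genes was not tested. Markers of mesothelium, endothelium, T cells, B cells and granulocytes were not analysed, as none had a name.

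Over the 10 samples, with log2 CPM centred within Pre-ACTH and within Post-ACTH, Pearson's r was 0.13 between CPA3 and MS4A2, 0.51 between IL33 and IL1RL1 and 0.49 between CPA3 and IL33. The remaining pairs had negative r, at -0.08 for MS4A2 with IL33, -0.33 for CPA3 with IL1RL1 and -0.11 for MS4A2 with IL1RL1. Without dog 1, over 8 samples, r was 0.82 for CPA3 with IL33 and 0.18 for IL33 with IL1RL1. It was 0.10 for CPA3 with MS4A2, -0.32 for MS4A2 with IL33, -0.06 for CPA3 with IL1RL1 and -0.41 for MS4A2 with IL1RL1. These values are descriptions over samples that come in pairs from the same dogs, and those of CPA3 and MS4A2 rest on few reads.

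Among 12274 genes with a mean of at least 1 CPM, the 5 most similar to IL33 in this measure had r between 0.93 and 0.98. The 1 named among them was C3, the central complement component, with r = 0.96 (0.93 without dog 1). For IL1RL1 the 5 most similar genes had r from 0.96 to 0.97, and without dog 1 from 0.90 to 0.97. The 5 genes most similar to CPA3 had r between 0.92 and 0.95, and those most similar to MS4A2 between 0.84 and 0.90. None of the genes most similar to CPA3, MS4A2 or IL1RL1 had a name in the sources used here. The highest r picked from 12274 genes over 10 samples is high through that choice alone. No shared regulation is read from these values.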

How the data were processed

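VAT of 5 dogs was sequenced before and after treatment. Per the study's methods and labels, reads were trimmed, STAR placed them on the Ensembl build CanFam3.1, and the authors obtained gene counts with featureCounts. The deposited values are raw read counts, 1 table per library, without normalization. Tool versions, strand setting and handling of multi-mapping reads are not given in the sources used here. Samples were grouped by the treatment label and paired by animal. Deviations from the group means correlated within dogs (r from 0.0772 to 0.412, mean 0.274).

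From the counts, edgeR 4.0.16 in R 4.3.3 (TMM, quasi-likelihood test, dog as a block) tested the 13577 genes that had 10 or more reads in any library. P-values were adjusted by Benjamini-Hochberg, and genes under an FDR of 0.01 were called. The SE is the fold change divided by the root of its F statistic. Ratios of single dogs were taken on log2 CPM (prior count 2). Poisson and binomial intervals cover counting error only. The scripts were tested on simulated data. Alternatives were DESeq2 1.42.0, limma-voom (limma 3.58.1), no block, RLE or total-count scaling, other read filters, FDR under 0.05 and leaving out each dog, and, chosen after seeing the data, a prior count of 2 in the fold change.

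Members and lists were chosen with earlier results of these data known. Symbols came from the identifier and name columns of the study's gene list, which names 1079 of 1190 genes, and the reference table used here pairs no Ensembl identifier with a symbol. Its fold changes and p-values were not used. The text names the members, the list genes that passed or had the 3 lowest p-values, and the 5 genes per member with the highest within-group r where these have a symbol. No sequence of this genome build was used. Read totals of the libraries limit the precision of CPA3 and MS4A2 most.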

Additional observations from a re-analysis of the deposited data

Results flagged for a closer look

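The Pre-ACTH IL1RL1 level of dog 1, at 56.0 CPM, was far from the other 4 Pre-ACTH samples, which lay between 3.40 and 10.0 CPM. The gap to the nearest sample was 0.874 of the whole range, above Dixon's critical value of 0.71 for 5 samples. The same library also stood apart by its number of IL1RL1 reads per IL33 read, at 1.84 against 0.248 to 0.545 in the other dogs (0.813 of the range). On a log2 scale neither passed the critical value, with gaps of 0.619 and 0.607 of the range. Both values share the IL1RL1 reads of 1 library. In all, 22 groups of 5 samples were looked at in this way, and chance sets a sample apart in about 1 of 20 groups.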

How the results depend on the processing

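The 4 members kept their direction under every alternative run for them, and 1 value moved by more than the SD between dogs, the log2 fold change of CPA3 with a prior count of 2 (-2.85). Leaving out each dog gave ranges of -5.67 to -4.68 for CPA3, -3.85 to -2.77 for MS4A2, -1.90 to -1.73 for IL33 and 2.71 to 3.99 for IL1RL1. When 10 reads were required in 5 samples, CPA3 and MS4A2 were not tested. Over all genes, 268 were called, 1180 with DESeq2, 438 without a read filter, 1509 at FDR under 0.05, and from 1 (without dog 2) to 318 (without dog 1) when a dog was left out, with 12, 117 and 23 without dogs 3, 4 and 5. Without the replicate block 262 were called, and of the 6 list genes 2 passed in place of 1. All 6 passed with DESeq2 and at FDR under 0.05, and 0 when any 1 dog was left out. The sex difference of the response gave 0 calls with edgeR and 5 with DESeq2. When a dog was left out, it ranged from -2.61 to 1.32 for CPA3, from -3.52 to 1.86 for MS4A2 and from -1.50 to 1.17 for IL1RL1, so its sign depended on single dogs, and for CPA3 and MS4A2 it rests on 0 to 3 reads in each Post-ACTH library. Where a female dog was left out, the lone female pair was assumed to vary like the males. The cause of these shifts was not tested. Depth limited CPA3 and MS4A2, with 2 and 7 reads over the 5 Post-ACTH libraries.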

Other observations

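Dog 1 had the smallest rise in 52 of the 102 genes that were called higher in Post-ACTH, and its median log2 ratio over them was 0.73, against 1.02 to 1.14 in the other dogs. IL1RL1, which is not among the 102, also had its smallest Post-ACTH to Pre-ACTH ratio in dog 1. Over the 166 genes called lower, the smallest falls were found in dog 1 for 52 genes and in dog 5 for 50, with medians of -1.25 and -1.18. IL33 had its widest fall in dog 1. The highest Pre-ACTH level of the 102 genes was found in dog 1 for 23 genes and in dog 4 for 30, whereas that of IL1RL1 was found in dog 1 and its lowest in dog 4.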
